A study of Homo sapiens with 14 samples.

Results

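Factors that assemble the large ribosomal subunit, together with RNA polymerase I and other nucleolar proteins, were followed in cell lines of T-cell acute lymphoblastic leukemia (T-ALL) given AS605240, a small molecule inhibitor of PI3K. The list held 46 genes by name, and 41 of them had a probe set that names that gene alone, of 19775 genes measured in this way. Each gene was read from its brightest such probe set. BOP1, PPAN, EBNA1BP2, GNL3 and DKC1 were covered only by probe sets shared with another gene and were not measured here. By role, 24 of 28 listed genes of large subunit assembly, all 6 nucleolar protein genes, all 7 genes of RNA polymerase I transcription and 4 of 5 genes of the H/ACA small nucleolar ribonucleoproteins were measured.

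The samples were 7 established T-ALL lines (TALL-1, Molt-4, ALL-SIL, Jurkat, CCRF-CEM, P12-ICHIKAWA and HPB-ALL) cultured for 6 h with AS605240 at the IC50 value of each line or with vehicle. Each line gave 1 array per treatment, 14 arrays in all, so the line was the replicate, and the concentration was set line by line. The values are log2(signal + 16), in which 16 is the offset of the study's methods, and a change is AS605240 minus vehicle within a line. Signal levels are compared between arrays for the same gene only, never between genes.

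Ribosomal RNA is transcribed in the nucleolus by RNA polymerase I, which needs the upstream binding factor UBTF, the selectivity factor SL1 and the initiation factor RRN3. The transcript is modified by small nucleolar ribonucleoproteins, of which the H/ACA class makes pseudouridine, and is then cut and folded by many assembly factors. For the large subunit these include GTPases, methyltransferases, AAA ATPases and proteins that hold the place of a ribosomal protein until late in assembly. Growing leukemic cells depend on this pathway, and the transcription factor Myc is known to drive many of its genes through the E-box, a short DNA element.

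TALL-1 and P12-ICHIKAWA gave nearly the same profile. Across genes, Pearson r between their vehicle arrays was 0.994, and any other pairing of lines had 0.908 to 0.953. For the 41 genes described here the median distance between the vehicle arrays of P12-ICHIKAWA and TALL-1 was 0.0867 on the log2 scale, against 0.244 to 0.656 in the other pairs. Main counts are therefore also given with the mean of P12-ICHIKAWA and TALL-1 counted as 1 line. Of 10 T-cell markers, 8 had a signal over 50 in all 14 arrays, among them CD3D, CD3E and LCK. One of the 10, CD3G, was lower, in 7 of 7 lines (log2 change -0.26, adjusted p = 0.00682). Of 5 measured B-cell markers, CD79A had a signal over 50 in 12 arrays, CD79B in 5, BLK in 4 and MS4A1 and PAX5 in none. CD79B was the only B-cell marker that passed the test (log2 change -0.58, lower in 7 of 7 lines), and the summed B-cell marker signal was 47.5 to 501 with AS605240 and 47.8 to 424 with vehicle. None of the 5 measured myeloid markers passed (the summed signal was 160 to 264 with AS605240 and 155 to 278 with vehicle, with LYZ over 50 in all 14 arrays and CD14, CSF1R, MPO and ITGAM in none), and the part of these markers in the results below was not tested. The median change of all genes was 0.00060 to 0.040 per line. That of polyadenylated spike-in RNA, added to the sample before labeling, ran from 0.0014 in CCRF-CEM to 0.56 in Molt-4, above 0 in 7 of 7 lines. Hybridization controls changed by -0.53 to 0.20, with the lowest value in P12-ICHIKAWA, and the part of these controls in the results was not tested.

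Nucleolar and large subunit genes were lower with AS605240. Of the 41 genes, 34 were lower at an adjusted p under 0.05 (limma with the line as a block, adjusted by Benjamini-Hochberg over 19775 genes), none was higher and the remaining 7 were not called. Over all genes 7.03% were lower, 11.8% were higher and 81.1% were not called by the same rule. The median change of the 41 genes was -0.36, against 0.013 over all genes. At an additional threshold of 1.5-fold, 9 of the 41 were lower, against 0.506% of all genes, and none was higher, against 1.07%. These were CCDC86, RPF2, LYAR, PAK1IP1, RRS1, RRP15, MYBBP1A, MRTO4 and NOP16. In bulk RNA, fewer cells that express a gene and less RNA per cell cannot be told apart.

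The direction was shared by the lines. Between 35 and 39 of the 41 genes had a lower value with AS605240 in each line, where 42.9% to 49.7% of all genes did. Of the 34 genes called, 30 were lower in 7 of 7 lines, as 6.11% of all genes were, and the other 4, RPF1, RRP1B, NPM3 and POLR1C, in 6 of 7. For none of the 41 genes did the range over the 7 lines with AS605240 lie wholly below that with vehicle, as it did for 0.0708% of all genes. The SD of a gene between the lines with vehicle had a median of 0.36, and 21 of the 34 called genes changed by more than their own SD. The SD of the change had a median of 0.19. With P12-ICHIKAWA and TALL-1 counted as 1 line, 32 genes were lower, and NPM3 and NOP10 no longer passed. Without the line as a block, none of the 41 genes passed an adjusted p of 0.05 in limma (17 had an unadjusted p under 0.05), and of all 19775 genes 6 were lower in that fit.

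**Figure D1:**
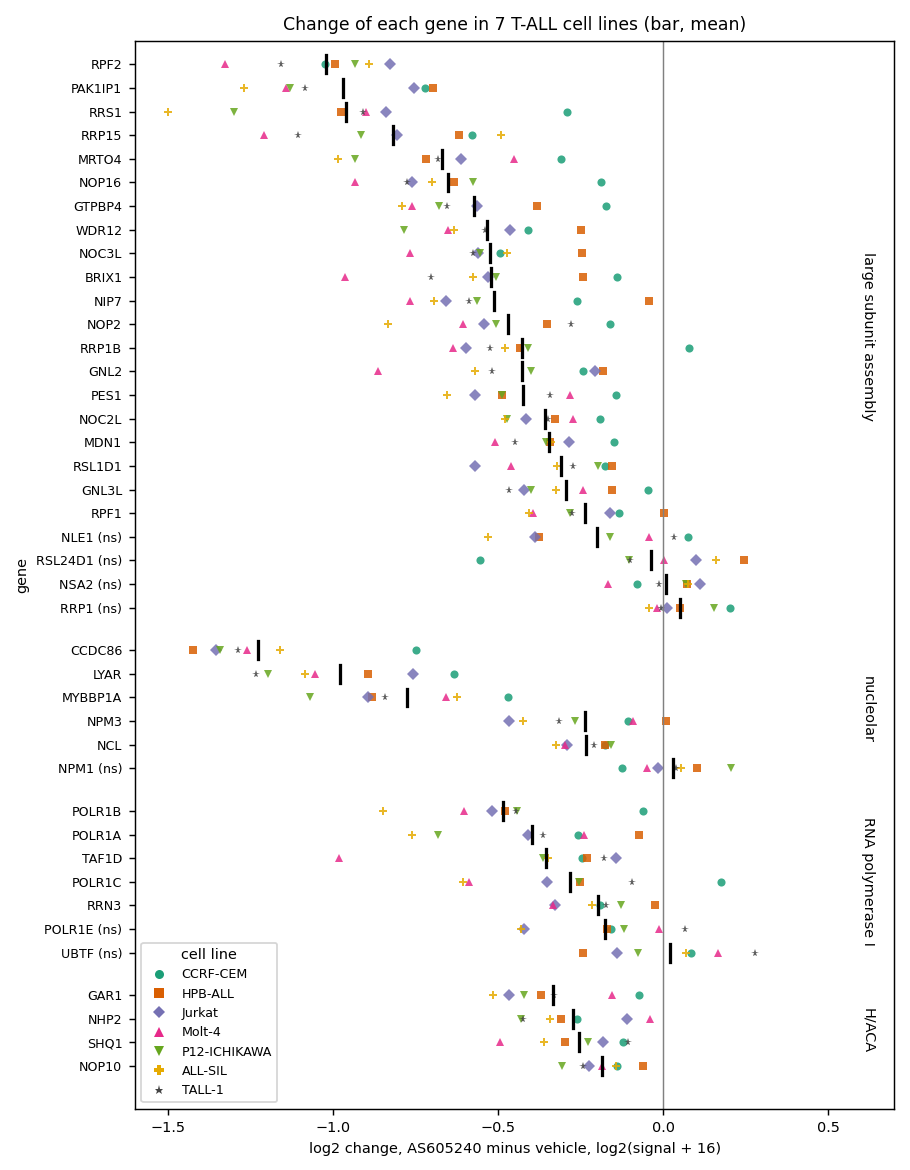
Change of each of the 41 measured genes with AS605240 in log2(signal + 16), on the horizontal axis, for each of 7 cell lines (points) with the mean (black bar), grouped by role on the vertical axis; (ns) marks the 7 genes that did not pass the test. CCDC86 lies farthest to the left, at a mean of -1.23, while NPM1, NSA2, RRP1 and UBTF lie at 0.01 to 0.05.

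The response was weakest in CCRF-CEM. The median change of the 41 genes was -0.18 in CCRF-CEM and -0.25 in HPB-ALL, against -0.36 in TALL-1, -0.42 in P12-ICHIKAWA, -0.46 in Jurkat, -0.49 in ALL-SIL and -0.50 in Molt-4. Of the 34 genes called, 17 had their smallest decrease in CCRF-CEM and 11 in HPB-ALL, whereas ALL-SIL had the largest decrease for 13 and Molt-4 for 12. The concentration was the IC50 value of the line. The study reports it as lowest for CCRF-CEM, the line with the weakest response, and highest for P12-ICHIKAWA, which did not have the strongest. For HPB-ALL, Jurkat and ALL-SIL the reported IC50 values are nearly equal, while their median changes were -0.25, -0.46 and -0.49. The part of concentration in these differences was not tested. With 1 array per line and treatment, the difference between lines was not tested.

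Since these genes moved together, their promoters were read for known elements. Promoter sequences of RefSeq (GRCh38.p14), from 250 bases before to 50 bases after the start of the transcript, were matched by symbol for 40 of the 46 genes, 36 of them measured. The E-box CACGTG, which reads the same on both strands, was present in 15 of these 40 genes, or 37.5%, against 8.77% of all 27305 genes with a promoter sequence. It was found for 10.9% of the genes measured on the arrays and for 18.9% of the genes called lower. By role it was present in 10 of 23 genes of large subunit assembly, 3 of 6 nucleolar genes, 2 of 5 H/ACA genes and none of 6 genes of RNA polymerase I. In 11 of the 15 genes an E-box lay within the 50 bases after the start. The element CCGGAAGT, recognized by ETS factors and searched on both strands, was present in 14 of the 40 genes, or 35.0%. It was present in 4.95% of all genes, 7.03% of the genes measured and 12.3% of the genes called lower. The 14 were 9 genes of large subunit assembly, 3 of RNA polymerase I, namely POLR1B, POLR1C and RRN3, and 2 of the H/ACA class. Both elements occurred together in 4 genes, and by their letters the elements cannot share a base. Neither element was particular to the 46 genes. Of 29 further large subunit factors with a promoter sequence, a list described below, 8 held the E-box and 10 the ETS element. A match is a description of the sequence and does not show that a factor binds there.

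The following promoters are shown because they belong to the 5 genes with the largest decreases among those with an E-box, which is in capitals. They lie at chr11:60841863-60842162 (plus strand) for CCDC86, chr4:4289972-4290271 (minus strand) for LYAR, chr6:10694722-10695021 (plus strand) for PAK1IP1, chr17:4555335-4555634 (minus strand) for MYBBP1A and chr1:19251555-19251854 (plus strand) for MRTO4.
CCDC86: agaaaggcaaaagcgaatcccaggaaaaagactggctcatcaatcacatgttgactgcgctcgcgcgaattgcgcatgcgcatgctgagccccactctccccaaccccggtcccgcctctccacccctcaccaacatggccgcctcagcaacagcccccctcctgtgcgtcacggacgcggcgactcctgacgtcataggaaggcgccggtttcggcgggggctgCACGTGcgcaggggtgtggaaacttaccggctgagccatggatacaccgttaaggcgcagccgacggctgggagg
LYAR: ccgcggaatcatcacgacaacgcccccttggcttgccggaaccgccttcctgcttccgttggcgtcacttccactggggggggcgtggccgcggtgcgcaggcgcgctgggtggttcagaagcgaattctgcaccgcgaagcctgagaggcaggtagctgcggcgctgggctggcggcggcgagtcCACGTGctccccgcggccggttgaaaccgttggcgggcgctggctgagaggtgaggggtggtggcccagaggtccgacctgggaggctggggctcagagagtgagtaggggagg
PAK1IP1: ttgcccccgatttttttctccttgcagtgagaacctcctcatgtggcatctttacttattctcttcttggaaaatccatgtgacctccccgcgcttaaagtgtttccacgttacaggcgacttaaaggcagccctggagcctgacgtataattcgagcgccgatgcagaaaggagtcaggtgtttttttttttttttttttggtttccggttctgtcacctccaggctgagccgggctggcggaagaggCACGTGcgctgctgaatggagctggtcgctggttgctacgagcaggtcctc
MYBBP1A: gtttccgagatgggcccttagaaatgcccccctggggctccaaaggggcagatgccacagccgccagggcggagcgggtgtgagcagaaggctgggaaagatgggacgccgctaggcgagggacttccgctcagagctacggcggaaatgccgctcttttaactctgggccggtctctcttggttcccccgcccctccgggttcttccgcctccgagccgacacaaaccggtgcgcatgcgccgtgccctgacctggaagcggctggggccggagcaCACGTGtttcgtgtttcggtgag
MRTO4: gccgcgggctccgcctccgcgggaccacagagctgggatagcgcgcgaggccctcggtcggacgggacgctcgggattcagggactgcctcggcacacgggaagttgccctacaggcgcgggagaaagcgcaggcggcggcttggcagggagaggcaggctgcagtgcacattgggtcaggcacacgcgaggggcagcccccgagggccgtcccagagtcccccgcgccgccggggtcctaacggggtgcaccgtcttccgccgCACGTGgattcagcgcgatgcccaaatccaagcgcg
The E-box began 25 bases before the start in CCDC86, 64 before it in LYAR and 1 before it in PAK1IP1, and at bases 28 and 15 of the transcript in MYBBP1A and MRTO4. Among measured genes with a promoter sequence, the 13 with an E-box had a median change of -0.47 (-1.23 to -0.19; 12 called lower) and the 23 without it a median of -0.28 (-0.82 to 0.05; 18 called lower). RPF2 (-1.02), RRS1 (-0.96), RRP1B (-0.43), RSL1D1 (-0.31) and POLR1E (-0.18) had no promoter sequence and are in neither set. The sets also differ in role, since no RNA polymerase I gene read held an E-box, and their difference was not tested. The promoters of POLR1B, at chr2:112542215-112542514 (plus strand), and NSA2, at chr5:74766999-74767298 (plus strand), both hold the ETS element, in capitals, and are shown because POLR1B was called lower and NSA2 was not.
POLR1B: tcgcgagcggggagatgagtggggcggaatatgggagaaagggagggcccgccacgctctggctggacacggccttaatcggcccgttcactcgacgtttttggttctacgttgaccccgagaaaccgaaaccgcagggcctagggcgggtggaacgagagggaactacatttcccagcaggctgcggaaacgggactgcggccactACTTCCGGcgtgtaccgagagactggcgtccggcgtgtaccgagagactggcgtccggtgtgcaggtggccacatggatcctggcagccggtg
NSA2: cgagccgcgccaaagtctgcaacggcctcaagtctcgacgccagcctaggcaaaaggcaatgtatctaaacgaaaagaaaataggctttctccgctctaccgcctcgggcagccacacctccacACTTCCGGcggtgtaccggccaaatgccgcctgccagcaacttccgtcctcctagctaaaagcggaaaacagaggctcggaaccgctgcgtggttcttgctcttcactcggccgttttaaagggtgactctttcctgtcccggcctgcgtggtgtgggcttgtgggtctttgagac
In both it reads as the reverse complement of CCGGAAGT, beginning 43 bases before the start in POLR1B and 126 before it in NSA2. The 12 measured genes with this element had a median change of -0.29, and the 24 without it -0.43. The ETS element was thus found in both a gene that was lower and one with a change of 0.01.

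Among the genes of large subunit assembly, 20 of 24 were lower and 4 did not pass, with a median change of -0.45. RPF2 and RRS1, which in yeast bring the 5S ribonucleoprotein into the early particle, had 2 of the largest decreases. RPF2 had a lowest, median and highest log2 level of 7.79, 7.83 and 8.77 with AS605240, against 8.73, 9.14 and 9.62 with vehicle. The levels overlapped only because Jurkat with AS605240 stood above P12-ICHIKAWA with vehicle. RPF2 was 2.03-fold lower (log2 change -1.02, standard error 0.067, adjusted p = 3.09e-06), and its change ranged from -1.33 in Molt-4 to -0.83 in Jurkat. RRS1 was at 7.26, 7.80 and 8.61 with AS605240 and at 8.30, 8.65 and 9.51 with vehicle. Its decrease of 1.95-fold (log2 change -0.96, standard error 0.11, adjusted p = 6.73e-05) had the widest spread of the 41 genes, from -1.50 in ALL-SIL to -0.29 in CCRF-CEM, an SD of 0.38 between lines.

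PAK1IP1, whose yeast counterpart Mak11 acts in the same particles, had log2 levels of 6.51, 7.04 and 7.99 (lowest, median, highest) with AS605240 and of 7.65, 8.06 and 8.71 with vehicle. Molt-4 was the lowest line and CCRF-CEM the highest in both groups. The decrease was 1.96-fold (log2 change -0.97, standard error 0.079, adjusted p = 9.19e-06), with at least -0.70 in every line, and its promoter is among those shown above. RRP15, a nucleolar factor needed for maturation of the large subunit RNA in yeast, was at 6.58, 7.17 and 8.12 with AS605240 and at 7.07, 7.92 and 8.92 with vehicle (1.76-fold lower, log2 change -0.82, standard error 0.086, adjusted p = 4.09e-05). For RRP15 the smallest decrease, -0.49, was that of ALL-SIL, which was the lowest line in both groups.

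MRTO4 resembles the ribosomal stalk protein P0 and holds its place during assembly. It was at 7.99, 8.30 and 9.08 with AS605240 and at 8.70, 9.03 and 9.61 with vehicle, 1.59-fold lower (log2 change -0.67, adjusted p = 9.03e-05). NOP16, a nucleolar protein required for the large subunit in yeast, was at 7.18, 7.98 and 8.94 with AS605240 and at 7.81, 8.47 and 9.70 with vehicle, 1.57-fold lower (log2 change -0.65, adjusted p = 9.46e-05). HPB-ALL was the lowest line in both groups for MRTO4 and for NOP16, and CCRF-CEM had the smallest decrease of each, -0.31 and -0.19.

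GTPBP4, the counterpart of the yeast GTPase Nog1, was at 8.64, 9.52 and 10.20 with AS605240 and at 9.32, 10.11 and 10.76 with vehicle (log2 change -0.57, standard error 0.076, adjusted p = 1.95e-04). WDR12, the measured partner of PES1 in the PeBoW complex, was at 8.58, 8.95 and 9.70 with AS605240 and at 9.21, 9.49 and 10.16 with vehicle (log2 change -0.53, adjusted p = 1.48e-04). PES1 itself was 1.34-fold lower (log2 change -0.42, adjusted p = 6.92e-04). Both measured PeBoW genes were thus lower in 7 of 7 lines.

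NOC3L, the counterpart of yeast Noc3, was at 7.96, 8.57 and 9.21 with AS605240 and at 8.44, 9.12 and 9.56 with vehicle (log2 change -0.53, adjusted p = 1.08e-04). BRIX1, which binds the large subunit RNA, was at 7.74, 8.15 and 8.68 with AS605240 and at 8.26, 8.71 and 9.21 with vehicle (log2 change -0.52, adjusted p = 8.55e-04), with -0.97 in Molt-4 and -0.14 in CCRF-CEM. The methyltransferase gene NOP2 was at 6.74, 7.96 and 8.47 with AS605240 and at 7.25, 8.31 and 9.01 with vehicle (log2 change -0.47, adjusted p = 7.65e-04). P12-ICHIKAWA was the lowest line for NOP2 and Jurkat the highest in both groups. NIP7, a factor of ribosomal RNA processing, had 7.06, 8.14 and 8.63 with AS605240 and 7.10, 8.61 and 9.29 with vehicle, a log2 change of -0.51 (adjusted p = 7.96e-04). In HPB-ALL, where NIP7 was already low with vehicle, the change was only -0.04.

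The other 8 genes called in this role changed by -0.43 to -0.24 (adjusted p from 6.92e-04 to 0.0179). Besides PES1 they were RRP1B, the GTPase genes GNL2 and GNL3L, NOC2L, a partner of NOC3L, the AAA ATPase gene MDN1, which strips assembly factors from the particle, RSL1D1 and RPF1. RPF1, a protein of the Brix family as RPF2 and BRIX1 are, changed by -0.24 and did not pass without Molt-4 (adjusted p = 0.0534) or without ALL-SIL (adjusted p = 0.0563). With the mean of its probe sets RPF1 was at -0.09 (adjusted p = 0.242). The other probe sets are dim, at a mean log2 level of 4.28 and 4.21, beside 10.18 for the brightest.

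Of the 4 genes that did not pass, NLE1, a substrate of MDN1, was at 6.33, 7.72 and 8.21 with AS605240 and at 6.71, 7.88 and 8.13 with vehicle (log2 change -0.20, standard error 0.078, adjusted p = 0.0978). RSL24D1, which holds the place of the ribosomal protein RPL24, was at 10.60, 11.10 and 11.30 with AS605240 and at 10.70, 11.00 and 11.76 with vehicle (log2 change -0.04, adjusted p = 0.836). Its change was -0.56 in CCRF-CEM and between -0.10 and 0.24 elsewhere, so that CCRF-CEM, the line with the weakest response of the other genes, had the only large decrease of RSL24D1. NSA2, a factor of nuclear large subunit particles in yeast, was at 10.61, 10.96 and 11.20 with AS605240 and at 10.54, 10.97 and 11.20 with vehicle (log2 change 0.01, standard error 0.057, adjusted p = 0.943).

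The paralogs RRP1 and RRP1B, both counterparts of yeast Rrp1, had different values. RRP1B was at 9.68, 9.99 and 10.22 with AS605240 and at 10.12, 10.44 and 10.73 with vehicle (log2 change -0.43, standard error 0.079, adjusted p = 0.00178). It was lower in each line except CCRF-CEM, where the change was 0.08. RRP1 was at 9.52, 10.03 and 10.25 with AS605240 and at 9.56, 9.91 and 10.05 with vehicle (log2 change 0.05, standard error 0.056, adjusted p = 0.633), the fourth gene of this role that did not pass. The second probe set of RRP1 was lower in 7 of 7 lines (log2 change -0.41, adjusted p = 0.00126 over all probe sets with a gene symbol), so the value of RRP1 depends on the probe set. Both GTPases GNL2 and GNL3L were lower in 7 of 7 lines. GNL3L was at 7.44, 7.63 and 8.09 with AS605240 and at 7.84, 8.03 and 8.21 with vehicle (log2 change -0.29, adjusted p = 0.00538), and its paralog GNL3 was not measured here.

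**Figure D2:**
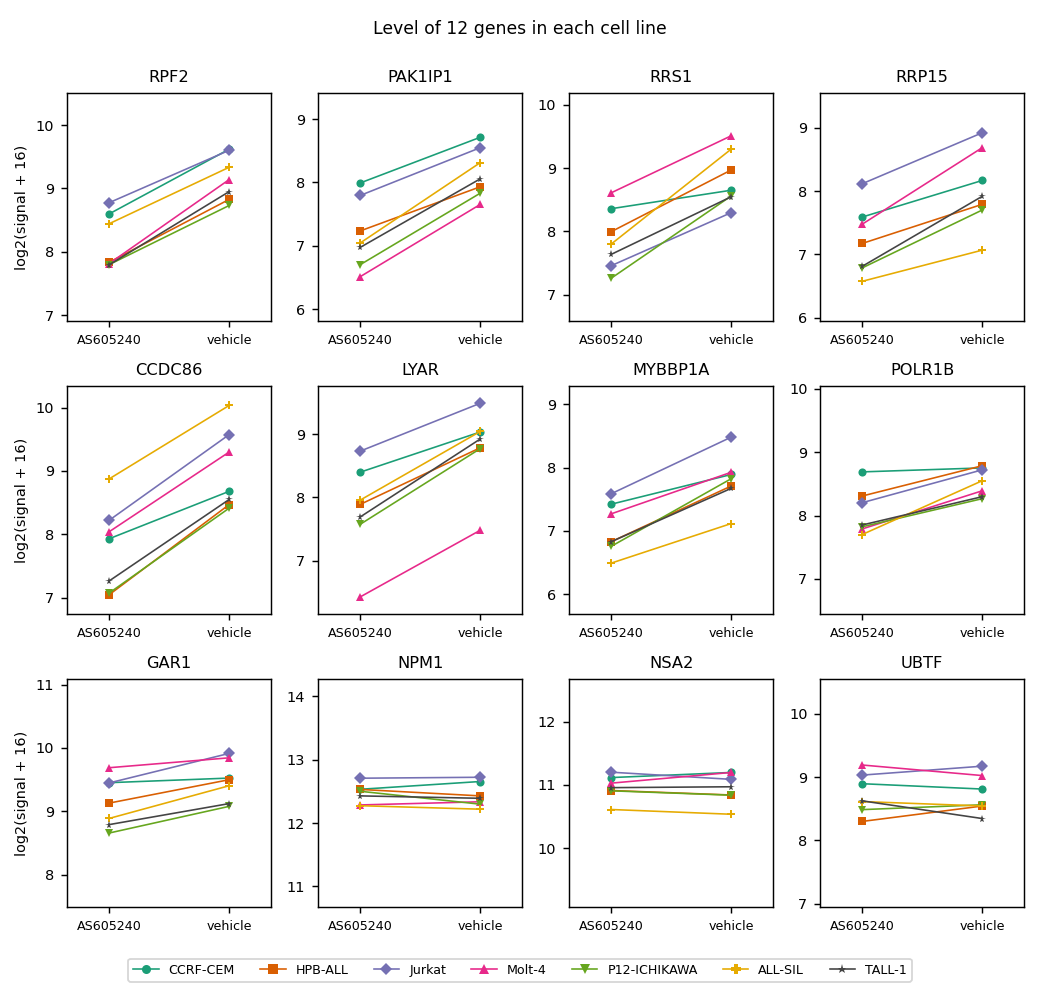
Log2(signal + 16) of 12 genes with AS605240 (left) and with vehicle (right), a line for each of 7 cell lines; each panel spans the same number of log2 units. RPF2, PAK1IP1, RRS1, RRP15, CCDC86, LYAR, MYBBP1A, POLR1B and GAR1 slope the same way in 7 of 7 lines. NPM1, NSA2 and UBTF cross or stay level (log2 change 0.03, 0.01 and 0.02).

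Nucleolar protein genes held the largest single change of the 41. CCDC86, a nucleolar coiled-coil protein whose yeast counterpart Cgr1 acts in large subunit assembly, was at 7.04, 7.93 and 8.87 with AS605240, against 8.41, 8.68 and 10.04 with vehicle. The range of each group spanned the lines more widely than the drug did, yet each line fell by at least 0.75. CCDC86 was 2.34-fold lower (log2 change -1.23, standard error 0.077, adjusted p = 2.88e-06), with the smallest decrease in CCRF-CEM and the largest, -1.43, in HPB-ALL.

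LYAR, a nucleolar zinc finger protein, was at 6.43, 7.89 and 8.73 with AS605240 and at 7.48, 8.92 and 9.49 with vehicle, 1.97-fold lower (log2 change -0.98, standard error 0.076, adjusted p = 7.68e-06). Molt-4 stood apart as the lowest line in both groups. MYBBP1A, a Myb-binding protein that shuttles out of the nucleolus, was at 6.49, 6.83 and 7.59 with AS605240 and at 7.12, 7.82 and 8.48 with vehicle, 1.71-fold lower (log2 change -0.78, standard error 0.072, adjusted p = 2.10e-05). The E-box promoters of CCDC86, LYAR and MYBBP1A are among those printed above.

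The abundant nucleolar proteins changed less. NCL, which encodes nucleolin, was at 10.71, 11.35 and 11.88 with AS605240 and at 11.03, 11.55 and 12.12 with vehicle (log2 change -0.23, standard error 0.054, adjusted p = 0.00767). Its decrease was small but even, from -0.32 to -0.16, with the lowest SD between lines of the 41 genes, 0.068. With the mean of both its probe sets, the other of which is dim, NCL was at -0.12 and was not called (adjusted p = 0.113). NPM1, which encodes nucleophosmin, was at 12.27, 12.50 and 12.71 with AS605240 and at 12.22, 12.39 and 12.72 with vehicle (log2 change 0.03, standard error 0.058, adjusted p = 0.801). Its other probe sets were at 0.0009 and -0.01. The paralog NPM3 was at 6.06, 6.50 and 9.16 with AS605240 and at 6.33, 6.92 and 9.63 with vehicle (log2 change -0.24, standard error 0.068, adjusted p = 0.0260). NPM3 fell into a high set of lines, CCRF-CEM, Jurkat and Molt-4, at 9.03 to 9.16 with AS605240 and 9.12 to 9.63 with vehicle, and a low set, the other 4 lines, at 6.06 to 6.50 with AS605240 and 6.33 to 6.92 with vehicle. The call of NPM3 was lost without Jurkat (adjusted p = 0.0832), ALL-SIL (0.0773), TALL-1 (0.0706) or P12-ICHIKAWA (0.0568).

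Of 7 genes of RNA polymerase I transcription, 5 were lower and 2 did not pass, with a median change of -0.28; none changed by more than 1.5-fold. POLR1B, which with POLR1A forms the catalytic core of the enzyme, was at 7.70, 7.85 and 8.69 with AS605240 and at 8.27, 8.55 and 8.79 with vehicle (log2 change -0.49, standard error 0.078, adjusted p = 7.11e-04). It changed by -0.85 in ALL-SIL and by -0.06 in CCRF-CEM. POLR1A, at 5.75, 6.42 and 6.61 with AS605240 and at 6.11, 6.66 and 7.02 with vehicle (log2 change -0.40, adjusted p = 0.00328), was the only one of the 41 genes with a signal of 50 or less in any array, in 2 of 14, and the offset understates changes at such signals. Both POLR1A and POLR1B were thus lower in 7 of 7 lines.

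TAF1D, a subunit of SL1, was at 6.56, 8.05 and 8.44 with AS605240 and at 7.54, 8.40 and 8.59 with vehicle (log2 change -0.36, standard error 0.089, adjusted p = 0.0119). Its mean rested in part on Molt-4, where the value was -0.98, while the 6 remaining lines lay between -0.36 and -0.14, and it kept its call without Molt-4 (log2 change -0.25) but not at an offset of 4 (adjusted p = 0.0539). POLR1C, a subunit shared with RNA polymerase III, was at 7.24, 7.70 and 8.27 with AS605240 and at 7.49, 7.98 and 8.62 with vehicle (log2 change -0.28, adjusted p = 0.0341), and was higher, at 0.17, in CCRF-CEM. The initiation factor RRN3 was at 7.88, 8.27 and 8.42 with AS605240 and at 8.10, 8.36 and 8.63 with vehicle (log2 change -0.20, standard error 0.058, adjusted p = 0.0278). The calls of POLR1C and RRN3 were each lost when 1 of 5 lines was left out, and the count of 5 lower genes became 3 without Jurkat, without Molt-4 or without ALL-SIL, and 2 at an offset of 4.

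POLR1E, a subunit that helps the enzyme at the promoter, did not pass (7.54, 7.78 and 8.17 with AS605240 and 7.47, 7.98 and 8.43 with vehicle; log2 change -0.18, adjusted p = 0.0972). UBTF was at 8.30, 8.63 and 9.19 with AS605240 and at 8.35, 8.56 and 9.17 with vehicle (log2 change 0.02, standard error 0.069, adjusted p = 0.897). The lines went both ways for UBTF, with -0.24 in HPB-ALL at one end and 0.28 in TALL-1 at the other. Of the 4 other probe sets of UBTF, 3 were higher in 7 of 7 lines, at 0.34, 0.34 and 0.35 (adjusted p = 0.00332 to 0.00498 over all probe sets with a gene symbol).

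The 4 measured genes of the H/ACA class were each lower in 7 of 7 lines, with a median change of -0.27. GAR1, a core protein of the particle, was at 8.66, 9.13 and 9.69 with AS605240 and at 9.08, 9.50 and 9.91 with vehicle (log2 change -0.33, standard error 0.066, adjusted p = 0.00278). NHP2, another core protein, was at 9.70, 10.60 and 11.66 with AS605240 and at 10.01, 11.02 and 11.77 with vehicle (log2 change -0.27, adjusted p = 0.00785). SHQ1, the assembly chaperone of the pseudouridine synthase, was at 7.57, 9.37 and 10.21 with AS605240 and at 7.87, 9.49 and 10.50 with vehicle (log2 change -0.26, adjusted p = 0.0100). The levels of SHQ1 differed far more between lines than between treatments, with an SD of 0.88 with AS605240 and 0.90 with vehicle. NOP10 was at 9.56, 10.73 and 10.83 with AS605240 and at 9.87, 10.83 and 11.01 with vehicle (log2 change -0.19, adjusted p = 0.0297), and this call was lost when any 1 of Jurkat, Molt-4, P12-ICHIKAWA, ALL-SIL or TALL-1 was left out (adjusted p up to 0.0827).

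The roles were set side by side in each line. The median change of large subunit assembly genes was -0.47 ± 0.15 (SD, n = 7 lines), that of RNA polymerase I genes -0.28 ± 0.099 and that of nucleolar genes -0.53 ± 0.11. The median of the assembly genes lay below that of the RNA polymerase I genes in 7 of 7 lines, by 0.02 in CCRF-CEM to 0.35 in TALL-1, a difference of -0.19 ± 0.11. Against RNA polymerase I and nucleolar genes together the difference was -0.17 ± 0.11, again below 0 in 7 of 7 lines. Against nucleolar genes alone it was 0.065 ± 0.12, below 0 in only 2 of 7 lines. These differences are descriptions without a test, because the genes were chosen with results of these arrays known. P12-ICHIKAWA and TALL-1, whose profiles were nearly the same, count as separate lines in them. Their differences from RNA polymerase I genes were -0.24 and -0.35.

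**Figure D3:**
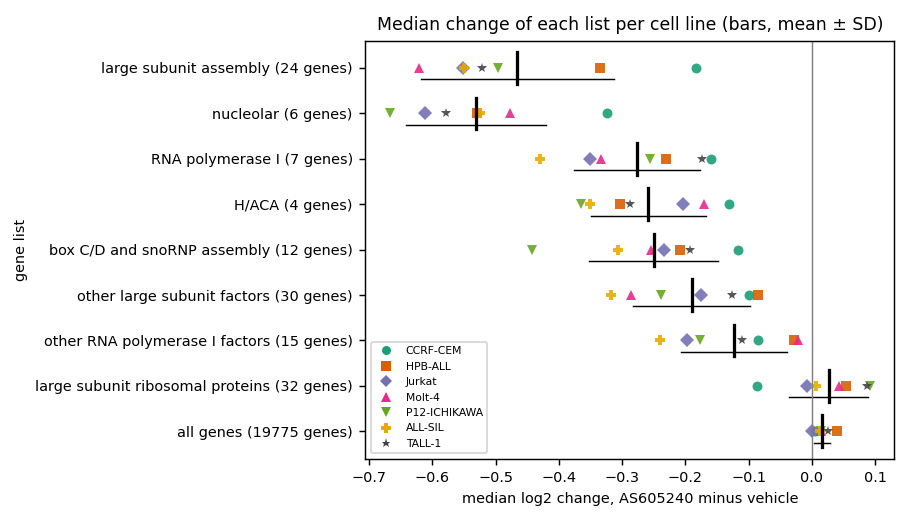
Median log2 change of the genes of each list with AS605240, on the horizontal axis, in each of 7 cell lines (points), with the mean (vertical bar) and ± 1 SD (horizontal bar). Large subunit assembly (-0.47 ± 0.15) and nucleolar genes (-0.53 ± 0.11) lie left of RNA polymerase I genes (-0.28 ± 0.099), and large subunit ribosomal proteins (0.027 ± 0.062) lie close to all genes (0.016 ± 0.013).

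Genes of the same pathway outside the 46 were read as further lists, and no difference between lists was tested. Of 30 measured further factors of the large subunit, 14 were lower and 1 was higher, with a median change of -0.18. This list held dim genes: RBM34 and NOP53, both not called, had a signal over 50 in none of 14 arrays, and ZNF593, called lower, in 10. MAK16, a partner of RPF1 in yeast, changed by -0.83 (adjusted p = 3.91e-05) and URB2 by -0.67 (adjusted p = 4.09e-05), while REXO4, which encodes a nuclear exonuclease family protein, was higher, by 0.25 (adjusted p = 0.00889). Of 15 further subunits and factors of RNA polymerase I, 6 were lower and 1 was higher, with a median of -0.14. POLR1G, a subunit particular to this polymerase, changed by -0.75 (adjusted p = 5.74e-05) and POLR2F, which is shared by the nuclear RNA polymerases, by -0.40 (adjusted p = 0.00107), whereas POLR1D, the partner of POLR1C, was higher, by 0.30 (adjusted p = 0.00865). Of 12 genes of box C/D particles and small nucleolar ribonucleoprotein assembly, 7 were lower and 1 was higher, with a median of -0.26, next to -0.27 for the H/ACA genes. Among them were NUFIP1 at -0.65 (adjusted p = 4.09e-05), RUVBL1 at -0.39 (adjusted p = 3.70e-04) and ZNHIT3, the higher gene, at 0.34 (adjusted p = 0.00206). In contrast, none of 32 measured ribosomal protein genes of the large subunit, of 46 listed, passed the test in limma. Of these, 0 had an unadjusted p under 0.05, and their mean changes were -0.11 to 0.089. The smallest p were those of RPL3, at 0.089 (adjusted p = 0.369), and RPLP2, at -0.11 (adjusted p = 0.373). The probe set of RPLP2 was dim, with a signal of 20.4 to 58.0 and over 50 in only 3 of 14 arrays. RPL27A had a mean change of 0.034, while its single lines ranged from -0.68 to 0.74.

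The choice of probe set was checked for the genes with several. The 41 genes had 84 single-gene probe sets, and 15 genes had only 1. For the 34 genes called, 32 further probe sets were available, of which 26 had a change below 0, 20 were lower and 2 were higher at an adjusted p under 0.05 over all probe sets with a gene symbol. Both higher ones belonged to RSL1D1, a nucleolar protein with a ribosomal L1 domain. The brightest probe set of RSL1D1 was lower in 7 of 7 lines (9.91, 10.04 and 10.43 with AS605240 and 10.08, 10.37 and 10.75 with vehicle; log2 change -0.31, adjusted p = 0.00409), and the other ones were higher in 7 of 7 lines, at 0.48 and 0.36. The direction of RSL1D1 therefore differed between its probe sets. Of the genes not called, UBTF had further probe sets that were higher (0.34, 0.34 and 0.35). The second probe set of RRP1 was lower (-0.41). POLR1B had a second probe set at 0.01 and a pair at -0.30 and -0.24, and NOP16, with -0.65 in each of its brightest probe sets, had dim ones at -0.02 and 0.11.

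**Figure D4:**
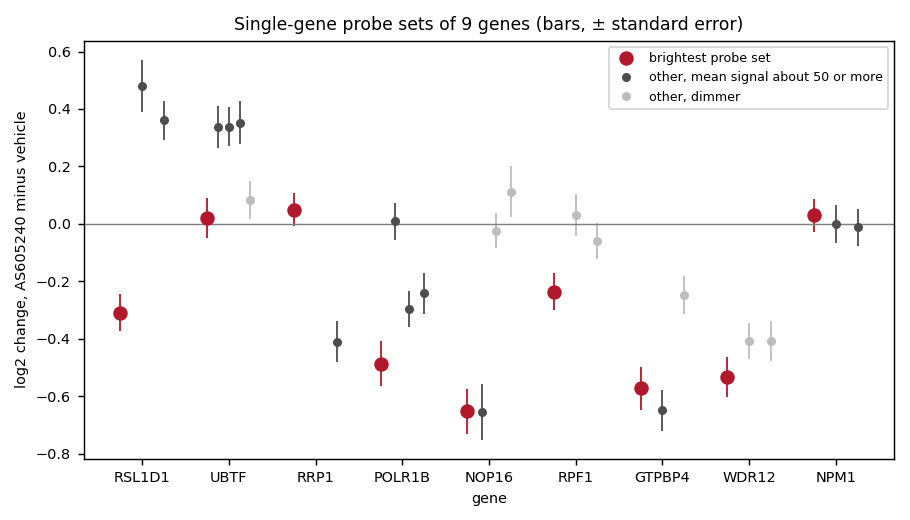
Log2 change with AS605240 (vertical axis, with ± 1 standard error) of each single-gene probe set of 9 genes, in order of brightness within a gene. The brightest probe set of RSL1D1 lies at -0.31 and the other ones at 0.48 and 0.36, whereas the probe sets of GTPBP4 and WDR12 lie below 0 throughout and those of NPM1 near 0.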

How the data were processed

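Gene expression was measured with HG-U133 Plus 2.0 arrays in 7 T-ALL cell lines, each with AS605240 or vehicle for 6 h. The authors deposited a linear signal intensity per probe set and array. By the study's methods these were summarized with iterPLIER, and the submitters' processing notes name PLIER and Affymetrix Expression Console 1.3.1.187; how arrays were normalized to each other is not given in the sources used. The methods add 16 and take log2, which was applied here, so small signals give understated changes. The design allowed for deposited log2 values, which they were not. The arrays hold 54675 probe sets. Apart from 62 controls, a single gene was named for 41091 of them, several genes for 1801 and no gene for 11721. Symbols came from the platform annotation, and 41037 were updated by gene ID through RefSeq genes.

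Among the single-gene probe sets of a gene, the one brightest on average (log2) was used, and dim signals were kept. The treatment effect was fitted by limma 3.58.1 under R 4.3.3 (lmFit, eBayes), with the line as a block as in the paired analysis of the study. The pairs come from the cell line label, and the deviations of the 2 arrays of a line from their group means had a Pearson r of 0.877 to 0.946 across genes. The p-values were adjusted by Benjamini-Hochberg over 19775 genes, and genes with an adjusted p under 0.05 were called. The fit was tested on simulated data with 200 changed genes. The number of arrays limits the precision. With the line as a block, the p-values measure the spread between lines of the change within a line, array noise included.

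The 46 genes, their roles and the other lists were chosen with earlier results of these arrays known. Levels are printed for the 12 genes of large subunit assembly with the largest decreases, for genes not called, for the other roles and for paralogs (the rule held 4 of RNA polymerase I, and RRN3 and RSL1D1 were added after their values were seen). From each further list the 2 genes with the smallest p and any called against its majority are named. Other settings tried were an offset of 4, an offset of 64, quantiles made equal, arrays centred on their median, the mean of all single-gene probe sets, genes with signal over 50 in at least 7 arrays, all probe sets tested, no block, each line left out, and P12-ICHIKAWA with TALL-1 as 1 line.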

Additional observations from a re-analysis of the deposited data

Results flagged for a closer look

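Each of the 41 genes was checked in the 7 lines for 1 line standing far from the rest in its change or in its level in either group, 123 checks in all. A line was singled out where its gap to the next line exceeded 0.568 of the whole range. There were 8 such values in the 123 checks, near the number that chance alone gives, about 1 in 20. Checks of the same gene share arrays and are not independent.

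TAF1D changed by -0.98 in Molt-4, where the next line, P12-ICHIKAWA, was at -0.36, and its level with AS605240 was 6.56 in Molt-4, with CCRF-CEM next at 7.74. CCDC86 changed by -0.75 in CCRF-CEM, with ALL-SIL next at -1.16. RRP1B changed by 0.078 in CCRF-CEM, with P12-ICHIKAWA next at -0.41. NIP7 was lowest in HPB-ALL in both groups, at 7.06 with AS605240 (next 7.97, P12-ICHIKAWA) and at 7.10 with vehicle (next 8.45, CCRF-CEM). LYAR with vehicle was lowest in Molt-4, at 7.48, with P12-ICHIKAWA next at 8.77. RSL24D1 with vehicle was highest in CCRF-CEM, at 11.76, with ALL-SIL next at 11.14.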

How the results depend on the processing

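The number of genes lower, 34 of 41 beside 1390 of all 19775, was 28 at an offset of 4 (960 of all genes), 33 at an offset of 64 (1516), 35 with quantile normalization (1718), 36 with each array centred on its median (1840), 32 with the mean of all single-gene probe sets (1247), 36 when dim genes (signal over 50 in fewer than 7 arrays) were left out (1603 of 9186) and 32 with P12-ICHIKAWA and TALL-1 as 1 line (1153). At an offset of 4 the calls lost were RPF1, NPM3, POLR1C, RRN3, TAF1D and NOP10. With each line left out in turn 29 to 33 were lower (1054 to 1450 of all genes), with 19 to 20 for large subunit assembly, 4 to 5 for nucleolar genes, 3 to 4 for RNA polymerase I and 3 to 4 for H/ACA genes. The RNA polymerase I count of 5 became 2 at an offset of 4. Without the replicate block the count was 0 for the 41 genes and 0 for each of their roles. In that limma fit 17 of the 41 had an unadjusted p under 0.05, and 6 of all genes were lower, although the changes themselves are the same. The median change of each role kept its sign in these settings and moved by less than its SD between lines. Of the 34 genes called, 29 passed with any line left out, and 26 kept their call in every setting other than the fit without the block. Changes of sign concerned RSL1D1 (0.18 with the mean of all its probe sets), RRP1 (-0.18 by that mean, adjusted p = 0.0362), and 4 genes near 0. Centring on the median, which moved the median of all genes by under 0.1, to -0.020, gave -0.024 for NSA2, -0.0034 for NPM1 and -0.013 for UBTF. With a line left out NSA2 ranged from -0.0078 to 0.039, UBTF from -0.023 to 0.064 and RSL24D1 from -0.083 to 0.050. UBTF was at 0.23 with the mean of all its probe sets (adjusted p = 0.0119). The cause of these shifts was not tested. The 5 genes without a single-gene probe set stay undecided.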
